A study of Mus musculus with 12 samples.

Results

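The regions described here are the strongest m6A peaks of mouse keratinocytes before and after differentiation. They are the 500 peaks with the highest enrichment score at day 0, of 19920 listed, and separately the 500 with the highest score at day 4, of 18423 listed. That makes 1000 of 38343 listed peaks, or 2.51% of the day 0 list and 2.71% of the day 4 list. They were chosen by the score itself, so their scores are given as a description and no test was made on them. The cells were primary keratinocytes from newborn mouse epidermis, grown to passage 3 on 3T3 feeder fibroblasts stopped with mitomycin C, in low calcium medium. They were sampled undifferentiated (day 0) or after a calcium shift (day 4), and no genetic change or strain is given in the labels. Each day had 3 input libraries of polyadenylated RNA and 3 libraries enriched with an anti-m6A antibody, 12 in all. The deposited tables carry no value per library, so library depth and the spread between replicates are unknown, and the only tests across replicates are those in the authors' tables of changes.

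N6-methyladenosine (m6A) is the commonest internal modification of mRNA. It is placed while the RNA is being made by a complex built around the methyltransferase METTL3, mostly at adenosines inside short sequences such as GGAC, and reader proteins of the YTH family bind it and can hasten decay of the transcript. In mammalian mRNA it is known for gathering in long internal exons and around stop codons, and for being sparse in short ones. Immunoprecipitation of broken RNA locates it as a peak, a stretch where fragments are more frequent after enrichment than in the input.

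The sequences below show stretches of 30 bases inside members that the results return to (Pcif1, Abca12, Cd274, Kdm3a and Exoc5) or that stood in both lists (Ankfy1 and Ogdh). Each was placed over a GGAC where the overlap with the sequence table had one. Stretches of Dynlt3, Clasp1 and Uros, with GGAC, and of Aldoa and Tbc1d8b, without it, are not printed. They were read from RefSeq start windows (250 bases before to 50 after a gene's start) on GRCm38.p6, the reference release behind mm10 coordinates. Only 8 members at day 0 and 7 at day 4 overlapped a start window on either strand (1.60% and 1.40%), against 3.92% and 4.86% of all peaks. The stretches are written 5′ to 3′ on the strand of the transcript, and capitals mark GGAC, or GGACT where that longer form is present. Pcif1, the enzyme that methylates adenosine next to the mRNA cap, held a member at day 4 on the plus strand, and the stretch is chr2:164891154-164891183. Ankfy1, an endosomal protein, held a member on both days on the plus strand, and the stretch is chr11:72765233-72765262. Abca12, the lipid transporter that loads the granules of the epidermal barrier, held a member at day 0 on the minus strand, and the stretch is chr1:71414861-71414890. Kdm3a, a histone demethylase, held a member at day 0 on the minus strand, and the stretch is chr6:71609360-71609389. Exoc5, a subunit of the exocyst, held a member at day 4 on the minus strand, and the stretch is chr14:49066569-49066598. Cd274, which encodes the checkpoint ligand PD-L1, held a member at day 0 on the plus strand, and the stretch is chr19:29385172-29385201. Ogdh, a subunit of the 2-oxoglutarate dehydrogenase complex, held a member at its start on both days on the plus strand, and the stretch is chr11:6291597-6291626.
Pcif1: tcacagactgctaGGACTcagcctcagggc
Ankfy1: ggagatgataGGACTgactgagtggggaga
Abca12: tctctctggagtgtGGACTtcgcacaagag
Kdm3a: gagaagcaatttgggtgtgcctctaaaagt
Exoc5: tcctcagaaggtcttaagaacctacacccg
Cd274: ttccattttaaaactagggcagtcccGGAC
Ogdh: gggctacgcgttgacgccacacgccggggc

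The Pcif1, Ankfy1 and Cd274 stretches lie in start windows of predicted genes that run through the same place (Gm46775, Gm46287 and Gm36043), the first and the last of them on the opposite strand. The Exoc5 stretch lies in the window of its neighbour Ap5m1 on the opposite strand, and the other 3 lie in the start window of the named gene. The Kdm3a, Exoc5 and Ogdh stretches carry no GGAC. For Pcif1, Ankfy1, Cd274 and Kdm3a it was looked for over 239 to 300 covered bases of the window. Over 300 bases, 65.6% of all start windows held GGAC on the transcript strand and 66.1% on the other strand. Among the 32851 start windows in the table, GGAC stood in the first 50 transcribed bases of 18.9% on the transcript strand and of 17.4% on the other strand. Peaks of any score that covered the whole of those bases in their own gene held it in 25.3% of 265 windows at day 0 and 25.4% of 335 windows at day 4 on the transcript strand. On the other strand 45 and 67 of these windows held it. For the members the numbers were 2 of 5 windows at day 0 and 0 of 5 at day 4, too few to compare. A match describes the letters and is not a mapped site. Most of the peak letters were not analysed here.

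Scores of the members ran from 369 to 2915 at day 0 (median 513) and from 240 to 2513 at day 4 (median 315). The authors computed these scores, the sources used here do not give their scaling, and they were used only to order peaks within a list. At day 0 the edge of the set fell between Arl13b (369.4) and Abl2 (369.0), with Akap2 and Pakap (both 370.0) just inside and Atp9b (369.0) and Arid1b (368.9) just outside. At day 4 it fell between Uba6 (239.8) and Heatr5b (239.4), with Cdk19 (240.01) and Nf1 (240.0) inside and Zak (239.3) and Adgrg6 (239.1) outside. The score declines smoothly through rank 500 in both lists, so nothing in the lists themselves marks this limit. The largest unadjusted p among members was 2.2e-06 at day 0 and 4.5e-07 at day 4, in the authors' lists. Score and p ranked peaks differently, since 35 of the 500 members at day 0 and 32 at day 4 were also among the 500 peaks with the smallest p.

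**Figure D1:**
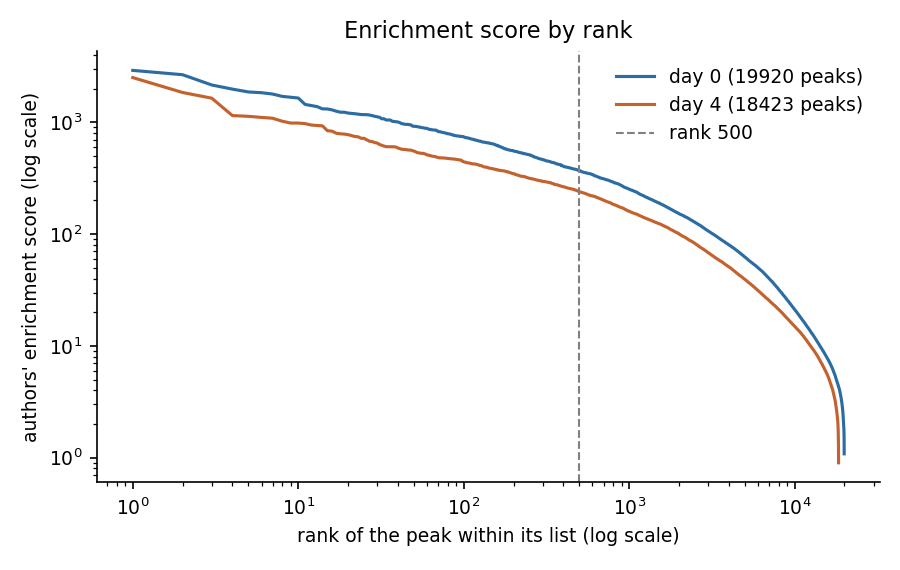
The authors' enrichment score of every peak is drawn against its rank within its own list, both axes on log scales, for day 0 (19920 peaks) and day 4 (18423 peaks). Both curves fall without a step at the dashed line at rank 500, where the score was 369.4 at day 0 and 239.8 at day 4.

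The members lay in 466 genes at day 0 and 459 at day 4, nearly all with a single member. At day 0, 437 genes held 1 member, 24 held 2 and 5 held 3. Those 5 were Ago2, the small RNA effector, Nipbl, which loads cohesin, Fryl, Vcpip1, a deubiquitinating enzyme, and Ubn2. The 3 Ago2 members lay close together between chr15:73105366 and position 73107011, with scores of 590, 814 and 600 in the order of their coordinates. At day 4, 39 genes held 2 members and Rictor, a defining subunit of mTOR complex 2, held 3, with scores of 528, 382 and 285. Members of a gene can be pieces of a wider region, as in Disp1, whose day 4 members (1644 and 481) overlapped a single day 0 peak at rank 548. The gene of a member often had no further peak, with 147 of 466 genes at day 0 (31.5%) and 168 of 459 at day 4 (36.6%) holding that peak alone. Over all genes with a peak these shares were 33.1% and 32.6%. A few members are copies of each other. Akap2 and Pakap, listed at day 0 with the same score, p and span at positions shifted by 2 bp, and Sprr2a1 and Sprr2a2, near-identical cornified envelope genes, with the same 2 intervals at day 4, cannot be told apart as genes.

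The 10 highest scores at day 0 were in Cops2, a subunit of the COP9 signalosome that removes NEDD8 from cullin ligases (score 2915), Herc2, a giant HECT ubiquitin ligase (2665), the deubiquitinase Usp34 (2158), the chromatin reader Phip (1981), the F-box adaptor Fbxo11 (1869), the phosphatase subunit Ppp4r2 (1840), the histone acetyltransferase Kat2a (1790), the RING finger protein Rnf11 (1706), Ralgapb (1674) and the lysosomal fucosidase Fuca2 (1650). At day 4 they were in Herc2 (2513), the small GTPase Arf2 (1848), Disp1, which releases Hedgehog ligands from cells (1644), the phosphodiesterase Pde4b (1149), Phip (1132), the lysosomal ATPase Atp13a2 (1106), the Arf-like GTPase Arl5a (1088), the cohesin subunit Stag2 (1023), Impad1 (985) and Slc35e1 (985). Herc2 and Phip stood among the 10 highest on both days. Fuca2, by contrast, stood at rank 569 at day 4 and so outside the members there.

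Gene lists were used to describe what the members' genes do. Of 30 deubiquitinases, 29 had a peak at day 0 and 9 had a member, and at day 4 the numbers were 25 and 8. Across all genes with a peak, 6.32% had a member at day 0 and 6.61% at day 4. Ubiquitin ligases and their adaptors had a member in 9 of 38 genes with a peak at day 0 (23.7%) and in 8 of 35 at day 4 (22.9%). Histone modifiers and chromatin remodellers had a member in 16 of 73 at day 0 (21.9%) and 12 of 71 at day 4 (16.9%). These lists were written with the leading peaks of the series already known, and no test was made, so the counts are a description. Other lists gave shares from 0 to 14.0%. Regulators of RNA decay, splicing and translation had a member in 6 of 43 at day 0 (14.0%) and 3 of 40 at day 4 (7.50%). Genes of epidermal transcription and signalling had 4 of 41 (9.76%) and 5 of 40 (12.5%), and cell cycle genes had 2 of 31 (6.45%) and 2 of 18 (11.1%). Keratins, adhesion and envelope genes had 1 of 35 (2.86%) and 2 of 35 (5.71%), and m6A writers, erasers and readers had 1 of 16 (6.25%) and 0 of 14.

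The authors' deposited table of expression lists 53.5% of 14924 genes tested, 27.1% higher and 26.4% lower at day 4, and a gene that is not listed either missed its threshold or was not tested. The authors' deposited table of methylation lists 6.96% of 36796 sites tested. These shares are the background for the counts that follow.

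Deubiquitinases remove ubiquitin from proteins and so oppose their degradation. Beside Usp34, the strongest members of this list were in Usp25 (score 1382 at day 0, 334 at day 4), the X-linked Usp9x (975 and 296) and Usp31 (819 and 367 for its stronger members). At day 4 Usp24 (366) and Usp33 (361) stood above Usp25 and Usp9x. All of these held members on both days. Usp24 was lower at day 4 by the authors' deposited table, with a log2 fold change of -1.01 (SE 0.12). Among the 9 genes with a day 0 member, the authors' deposited table had 3 lower and none higher. Of the whole list of 30, the authors' deposited table had 8 genes higher, 9 lower and 13 absent.

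Ubiquitin ligases attach the tag. On the list of ligases and adaptors, Herc2 and Fbxo11 were followed at day 0 by Xiap, an inhibitor of caspases (score 864 at day 0, 509 at day 4), and the HECT ligase Herc4 (693 and 294). The RING finger protein Rnf11 (1706 at day 0), named above, was not on the list. Mdm4, an inhibitor of p53, held a member at rank 257 at day 0 (score 504) and at rank 51 at day 4 (547). Its transcript was lower at day 4 (-0.32, SE 0.13) and its members overlapped a called loss of methylation (-0.55), by the authors' deposited tables. Of the 41 genes, the authors' deposited table had 6 higher, 11 lower and 24 absent.

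On the list of chromatin genes, Phip was followed by Suz12, a Polycomb subunit (score 1050 at day 0), and the bromodomain proteins Brwd1 (953 at day 0, 503 at day 4) and Brwd3 (909 and 605). Kat2a, named above, was not on the list and is outside its counts. It held a member on both days (1790 and 494) and was lower in the authors' deposited table (-0.78, SE 0.11). Ncor1, a corepressor, also held a member on both days (451 and 423), below several other chromatin genes at day 0. Suz12 was lower (-0.63, SE 0.13) and its member overlapped a called loss (-0.74), as the authors' deposited table gives them. Phip (-0.33, SE 0.15) and Brwd1 (-0.42, SE 0.13) were lower in the authors' deposited table as well, without a called site at the member. Of the 16 genes with a day 0 member, the authors' deposited table had 5 lower and 3 higher, the latter being Kdm3a (score 900), Smarcad1 (799) and Kdm1a (451), named after their values were seen. Their log2 fold changes in the authors' deposited table were 0.98 (SE 0.10), 0.29 (SE 0.11) and 0.30 (SE 0.09). The DNA methyltransferase Dnmt3a, chosen after its values were seen, held members on both days (661 and 281). Its transcript was lower (-1.14, SE 0.11) in the authors' deposited table, and both members overlapped a called loss (-0.65). Of the 76 chromatin genes, the authors' deposited table had 17 higher, 19 lower and 40 absent.

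On the list of epidermal transcription and signalling, genes with a member on both days were the Notch ligand Jag1 (score 855 at day 0, 423 at day 4), the receptor Notch1 (525 and 430), Egfr, the receptor for epidermal growth factor (659 and 312), and its partner Erbb2 (486 and 382). Notch2 held a member at day 4 (261). The Egfr member had the same coordinates in both lists, chr11:16911512-16912510, and the Notch1 and Erbb2 members also kept theirs. In the authors' deposited table Jag1 was higher at day 4 (1.27, SE 0.15), and the 3 receptors with members on both days were absent. Of the 45 genes of this list, the authors' deposited table had 21 higher, 9 lower and 15 absent.

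Claudin 1 (Cldn1), a tight junction protein needed for the skin barrier, held a member on both days (score 925 and 470). In the authors' deposited table it was higher (0.29, SE 0.10) while its member overlapped a called loss (-0.46). The integrin Itga3 held a member at day 4 (249) and was lower (-1.38, SE 0.10) in the authors' deposited table. Of the 42 genes of keratins, adhesion and envelope, the authors' deposited table had 20 higher, 13 lower and 9 absent, and the other 40 held no member.

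On the list of 37 cell cycle genes, those with members were the DNA damage kinase Atm (score 727 and 396) and Mcm6, a subunit of the replicative helicase (452 and 375), both on both days. Members in other genes of cell division, such as Plk4 and Nuf2, fell outside this list. Mcm6, by the authors' deposited table, was lower (-1.82, SE 0.10) and its members overlapped a called loss (-0.44), and Atm was lower (-0.79, SE 0.11). The authors' deposited table had 33 of the 37 genes lower and 2 higher, so a fall was the rule in this list with or without a member.

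Regulators of RNA fate included Smg1, the kinase of nonsense-mediated decay (score 1173 at day 0, 361 at day 4), Ago2 (814 at day 0), the deadenylase subunit Cnot2 (538 at day 0), Cpeb4, which binds cytoplasmic polyadenylation elements (451 and 324), and Tnrc6b, a partner of AGO proteins (392 at day 0, 258 at day 4). Smg1 was lower (-0.55, SE 0.13) and Cpeb4 higher (0.88, SE 0.18) by the authors' deposited table. The authors' deposited table had 9 of the 46 genes higher, 14 lower and 23 absent. Of 20 m6A writers, erasers and readers, the reader Ythdf3 alone held a member, at day 0 (436), and it spanned 10318 bp of genome. Of these 20 genes, the authors' deposited table had 9 lower, none higher and 11 absent.

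Keratinocyte identity was checked against markers. All 10 keratinocyte markers (Krt5, Krt14, Trp63, Itga6, Itgb4, Col17a1, Krt15, Dsg3, Perp and Sfn) had a peak on both days, and none held a member on either. The 9 of them in the authors' deposited table had mean normalized counts from 3145 to 209477. By log2 fold change in the authors' deposited table, 4 were higher at day 4: Krt15 (4.57), Krt14 (1.06), Krt5 (0.96) and Perp (0.58). The other 5 were lower, from -0.99 for Itga6 to -0.29 for Dsg3. The authors' deposited table had 4 of 13 fibroblast markers higher and 1 lower, with means from 50.9 to 6527, and fibroblast feeders were used up to passage 3. It had 2 of 8 melanocyte markers, both higher, with means of at most 128. For 8 markers of immune cells and endothelium the authors' deposited table gave 3 higher, 1 lower and means of at most 1175. Kdr, a receptor of endothelial cells, was the single marker of other cells with a member (score 754 at day 0). The part of other cells in the members was not tested, and in bulk RNA fewer cells of a type and less RNA per cell cannot be told apart.

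Members were wide, and their genes were long. At day 0 the members had a median genomic span of 500 bp, and at day 4 of 349 bp, against 198 and 150 bp over all peaks. For the next 500 ranks the medians were 399 bp at day 0 and 299.5 bp at day 4, closer to the members than to all peaks. Peaks of 50 bp, the narrowest in the lists, made up 3.6% of members at day 0 and 7.4% at day 4, against 28.7% and 30.2% of all peaks. Spans over 1000 bp, which can include introns, made up 29.2% and 15.6% of members against 14.6% and 12.2% of all peaks. Genes of members had a median length of 52255 bp (day 0) and 57059 bp (day 4), against 24537 and 23466 bp for all genes with a peak. Ranking by the smallest p turned this order, with medians of 21064 and 18643 bp. Length fell with rank, to 46385 bp for the next 500 ranks at day 0 and to 20279 bp beyond rank 8000, and at day 4 to 49180 and 19289 bp. Genes with Zfp names, most of them zinc finger proteins, supplied 1.20% of members at day 0 and 2.00% at day 4, against 2.85% and 2.71% of all peaks.

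The members were seldom close to the start of a gene. Of 477 day 0 members inside a protein-coding RefSeq gene, 12 came to 1000 bp or less from its 5′ end, measured from the nearer edge of the peak (2.52%, Wilson 95% interval 1.44 to 4.35), and 19 of 475 day 4 members did (4.00%, 2.58 to 6.16). All peaks gave 9.13% and 11.2%, all peaks of at most 1000 bp gave 6.42% and 8.21%, and the next 500 ranks gave 4.61% at day 0 and 5.88% at day 4. The last value lay inside the members' interval, so this share does not set the day 4 members apart from the next ranks. The intervals of these shares cover counting error over peaks only. For the same distance from the 3′ end the shares were 22.6% (19.1 to 26.6) at day 0 and 22.5% (19.0 to 26.5) at day 4, against 29.7% and 31.2% of all peaks. The next 500 ranks gave 24.9% at day 0 and 21.6% at day 4 for this distance, inside the members' intervals, so these shares do not set the members apart from them. Compared with all peaks, the members lay more often somewhat further in. On each day 49.9% lay over 1000 and up to 5000 bp from the 3′ end, where 34.5% of all peaks lay on either day. Median distances to the 3′ end of 2699 bp (day 0) and 2949 bp (day 4) stood beside 2509 and 2367 bp for all peaks. Distances run along the genome with introns, and gene length differs between the sets, so these shares are not densities over transcript positions. Another ranking turned the order, since 45.3% (day 0) and 45.2% (day 4) of the 500 peaks with the smallest p were that close to the 3′ end.

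**Figure D2:**
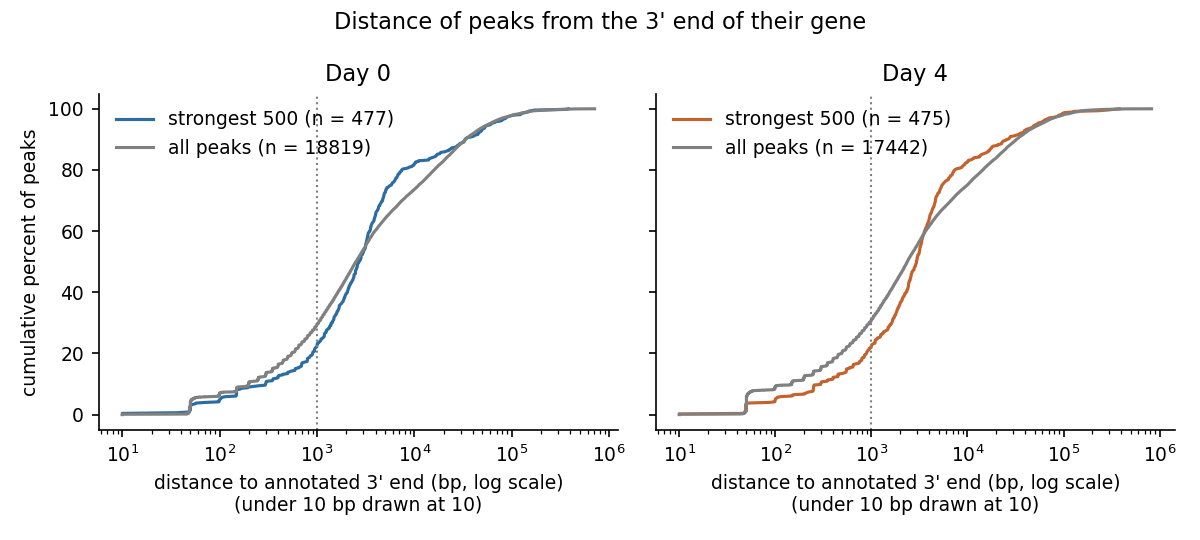
The cumulative percent of peaks is drawn against their distance from the annotated 3′ end of their gene (bp, log scale) for the strongest 500 (477 and 475 inside a protein-coding gene) and for all peaks of each day. The coloured curves lie below the grey ones at 1000 bp (22.6% against 29.7% at day 0) and gain 49.9% between 1000 and 5000 bp.

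Most members coincided with a peak of the other day, and about as many with a member of the other day as not. On the same strand, 484 of 500 day 0 members shared 1 bp or more with a day 4 peak (96.8%, Wilson 95% interval 94.9 to 98.0). For 466 of 500 day 4 members a day 0 peak did so (93.2%, 90.6 to 95.1). Over all peaks the shares were 70.2% and 78.9%. For the next 500 ranks they were 91% at day 0 and 90.4% at day 4, closer to the members than to all peaks. Among all peaks over 100 bp the shares were 85.7% and 92.1%, the latter near that of the day 4 members. Members over 100 bp whose score was not a whole number, a subset chosen after seeing the data, gave 98.1% and 96.4%. Of the day 0 members, 259 overlapped a day 4 member (51.8% of the list), and of the day 4 members, 263 overlapped a day 0 member (52.6%). In genes, 256 held a member on both days, 54.9% of the day 0 genes and 55.8% of the day 4 genes. Identical coordinates in both lists were found for 133 day 0 members, 67 of them with a day 4 member.

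Most members with an overlapping peak on the other day stood high in that day's list, counting those within its top 500. Of the 225 day 0 members whose day 4 peak was weaker than that, 40 fell below the top 10%. At day 4, 24 of 203 such members did. The strongest overlapping day 4 peak of a day 0 member lay at a median of 2.49% from the top of the day 4 list, and 444 of 484 lay within the top 10%. The lowest was that of the weaker of 2 members in Uggt1, a sensor of glycoprotein folding, at 29.0%. For day 4 members the median was 2.06% from the top of the day 0 list, 442 of 466 lay within the top 10%, and the lowest was Cutc at 25.7%. Ranks from lists of different length show no change in methylation. The members of both lists with the smallest sums of ranks were in Herc2, Phip, Impad1, Slc35e1, Arhgap29, Gm38431, Lin54, Ralgapb, Zfp91 and Gna13. The Herc2 member, chr7:56230899-56231448, kept the same coordinates and stood second at day 0 and at the top of the list at day 4. Lin54, a DNA-binding subunit of the DREAM complex, stood at rank 11 at day 0 and 33 at day 4.

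**Figure D3:**
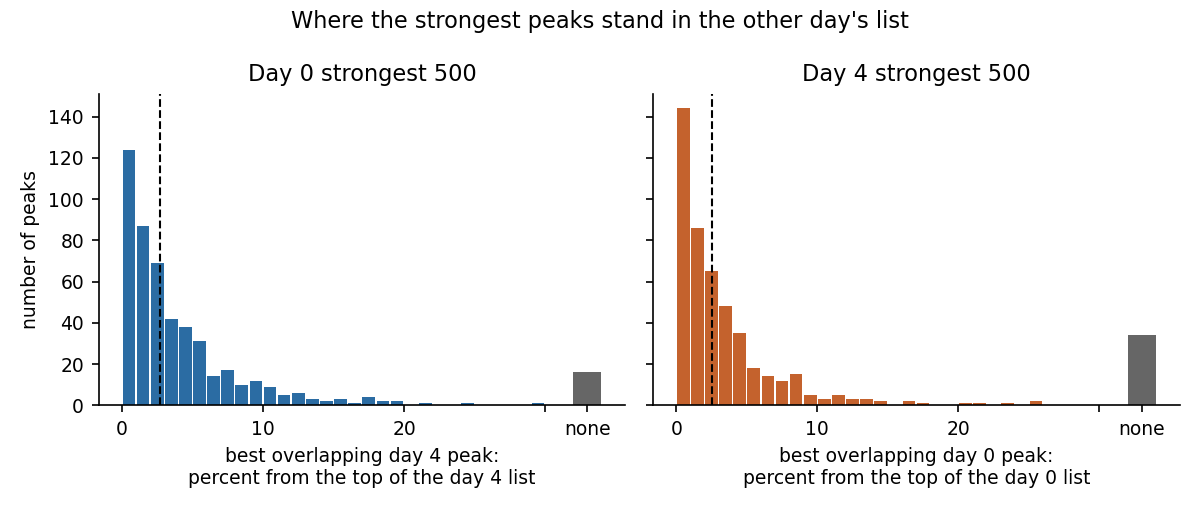
For the 500 members of each day, bars count the position of the strongest overlapping peak of the other day, as percent from the top of that day's list, and the grey bar counts members with no overlapping peak (16 at day 0, 34 at day 4). The dashed line marks rank 500 of the other list, and most members lie within the top 10%.

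Members without a counterpart were few, and their transcripts moved with the day. At day 0 there were 16, of which 13 lay in genes with no day 4 peak at all. By score they were led by Acad9, an acyl-CoA dehydrogenase needed to assemble respiratory complex I (1411), Cox15, which makes heme A (690), the kinase Aak1 (558), Kansl1l (519), the centriole kinase Plk4 (473), the translesion polymerase subunit Rev3l (445), Cd274 (400), the kinetochore protein Nuf2 (398), the helicase Brip1 (380) and Tmem144 (380). Cox15 also held another day 0 member (666), which did overlap a day 4 member (371). Of the 16 genes, the authors' deposited table held 13, all of them lower, and their median log2 fold change was -1.52. At day 4 there were 34 such members in 32 genes, 28 of them in genes with no day 0 peak. They were led by Arf2 (1848), Atp13a2 (1106), Kbtbd7 (719), the exocyst subunit Exoc5 (677), the formin Fhod3 (519), the kinesin Kif26b (479), Strbp (477), the vesicular amine transporter Slc18a1 (465), the innate immune adaptor Tifa (421) and Tmem229b (397). Of the 32, the authors' deposited table held 26, all of them higher, and their median log2 fold change was 1.82. The same held for weaker peaks, since 765 of 797 listed genes with peaks at day 0 alone were lower and 466 of 497 with peaks at day 4 alone were higher, and those genes also served to read the direction of the table. The part of transcript level in whether a peak was called was not tested. The copies named above are counted more than once here, Akap2 and Pakap among the 16 and Sprr2a1 and Sprr2a2 among the 34.

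Many members without a counterpart were narrow. A span of at most 100 bp was found for 7 of the 16 at day 0 and 19 of the 34 at day 4, copies included. Scores that were whole numbers (within 1e-09) made up 3.6% of members at day 0 and 7.0% at day 4, against 2.15% and 1.58% of all peaks, and 15 of 18 and 27 of 35 such members spanned at most 100 bp. Acad9 (1411 over 50 bp), Arf2 (1848 over 100 bp) and Atp13a2 (1106 over 99 bp) are of this kind. The sources used here do not say what a whole-number score stands for, and its part in these ranks was not tested.

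The expression comparison asks which transcripts change as progenitors differentiate, and the members' genes can be read against it. Of the 466 day 0 genes, the authors' deposited table held 266 (57.1%), 114 higher and 152 lower at day 4, and their median log2 fold change was -0.36. For all genes with a day 0 peak the authors' deposited table gave 64.3% present, 2010 higher, 2738 lower and a median of -0.38. Of the 459 day 4 genes, the authors' deposited table held 273 (59.5%), 125 higher and 148 lower, and their median was -0.33. For all genes with a day 4 peak the authors' deposited table gave 64.0% present, 2444 higher, 2004 lower and a median of 0.32, the opposite sign. The counting interval of the day 4 members' median, -0.41 to 0.29, held both signs. Only genes under the authors' threshold enter these medians, so small changes are missing from them. The share higher among listed genes was thus 45.8% for day 4 members (Wilson 95% interval 40.0 to 51.7) and 54.9% for all day 4 genes. The members' shares present, 57.1% and 59.5%, stand near the 53.5% of all genes tested. The input libraries behind these changes are also the ones the peaks were called against, so the values are not independent of the choice of members.

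The leaning at day 4 depended on how strength was ranked. The share higher rose down the day 4 list, from 45.8% for ranks 1 to 500 and 43.7% for the next 500 ranks to 61.5% beyond rank 8000. At day 0 it stayed between 41.0% and 45.4% in every range of ranks. Taking the 500 day 4 peaks with the smallest p instead turned the median to 0.55 in the authors' deposited table, with 203 higher and 74 lower. Those genes had a median mean normalized count of 5252, against 826 for the listed day 4 members' genes and 992 for all listed genes with a day 4 peak, in the authors' deposited table. At day 0 the same change of ranking gave a median of -0.42, with 104 higher and 183 lower, in the authors' deposited table.

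**Figure D4:**
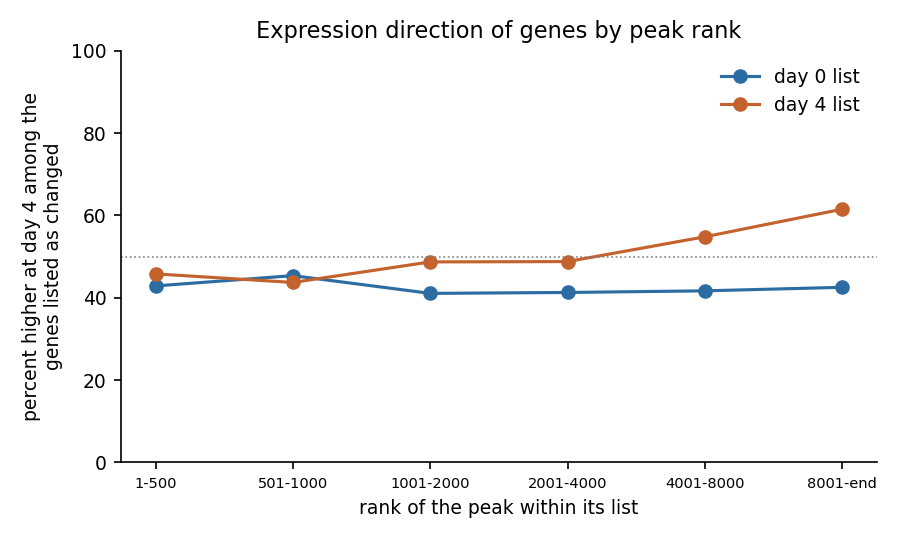
Points give the percent of genes higher at day 4, among those listed as changed, for 6 ranges of peak rank in each list, with a dotted line at 50%. The day 4 list climbs from 45.8% to 61.5% while the day 0 list stays between 41.0% and 45.4%.

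The largest falls among the day 0 members' genes were Megf6 (-2.82, SE 0.15), the repair helicase Brip1 (-2.75, SE 0.17), Shmt1, an enzyme of folate metabolism (-2.71, SE 0.13), Dtl, the substrate adaptor that destroys Cdt1 in S phase (-2.60, SE 0.12), Gas2l3, which links actin and microtubules (-2.46, SE 0.14), and Plk4 (-2.43, SE 0.13) in the authors' deposited table. Their largest rises were the stress kinase of the endoplasmic reticulum Eif2ak3 (2.13, SE 0.11), Srgap1 (1.86, SE 0.17), Lgalsl (1.73, SE 0.14), the F-box protein Fbxo32 (1.72, SE 0.14), Mfap3l (1.50, SE 0.17) and the sterol enzyme Sqle (1.42, SE 0.09) in the authors' deposited table. Genes with a mean normalized count under 100 were not considered here. Brip1, Dtl and Plk4 had no overlapping peak at day 4, and the other 9 genes did.

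Among the day 4 members, the largest rises were larger than any at day 0. They were Fhod3 (7.99, SE 0.67), Kif26b (5.52, SE 0.35), the growth factor Tgfb2 (3.33, SE 0.19), the cornified envelope genes Sprr2a1 and Sprr2a2, which carry the same values (3.12, SE 0.12), and Srgap3 (3.09, SE 0.23) in the authors' deposited table. Of these members, that of Tgfb2 alone overlapped a day 0 peak, at rank 937 of that list. The largest falls were Megf6, Gas2l3, the anthrax toxin receptor Antxr1 (-2.15, SE 0.16), the nuclear pore protein Ndc1 (-2.10, SE 0.13), the semaphorin Sema3c (-2.02, SE 0.13) and Raph1 (-1.89, SE 0.16) in the authors' deposited table. All 6 of these falling genes had an overlapping day 0 peak, at ranks from 14 to 1677 of that list.

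Genes were also split by whether they held a member on both days. The 256 that did were, in the authors' deposited table, lower in 82 and higher in 59 of the 141 cases present, with a median of -0.38. The 210 with a member at day 0 only gave 55 higher and 70 lower (median -0.35), and the 203 with a member at day 4 only gave 66 higher and 66 lower (median -0.0037) in the authors' deposited table. For comparison, genes with any peak on both days were 1978 higher and 1973 lower, with a median of 0.18, in the authors' deposited table.

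The remaining comparison is of methylation itself between the days, where 4.79% of the sites tested were called as gains and 2.17% as losses at day 4. More members overlapped losses than gains on both days. At day 0, 82 members overlapped a called loss (16.4%, Wilson 95% interval 13.4 to 19.9) and 6 a called gain (1.20%, 0.551 to 2.59). Over all day 0 peaks the shares were 4.46% and 5.84%. At day 4, 44 members overlapped a loss (8.80%, 6.62 to 11.6) and 26 a gain (5.20%, 3.57 to 7.51), against 4.78% and 8.05% of all day 4 peaks. The next 500 ranks gave 11.4% losses and 3% gains at day 0, and 7.8% and 5.4% at day 4. Both day 4 values lay inside the members' intervals, so these shares do not set the day 4 members apart from the next ranks. The calls come from the same libraries that gave the scores. The day 0 counts therefore are a description only, since a high day 0 signal enters both the choice of a day 0 member and the size of its loss. The day 4 members were chosen on the same libraries, so their counts are a description as well.

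**Figure D5:**
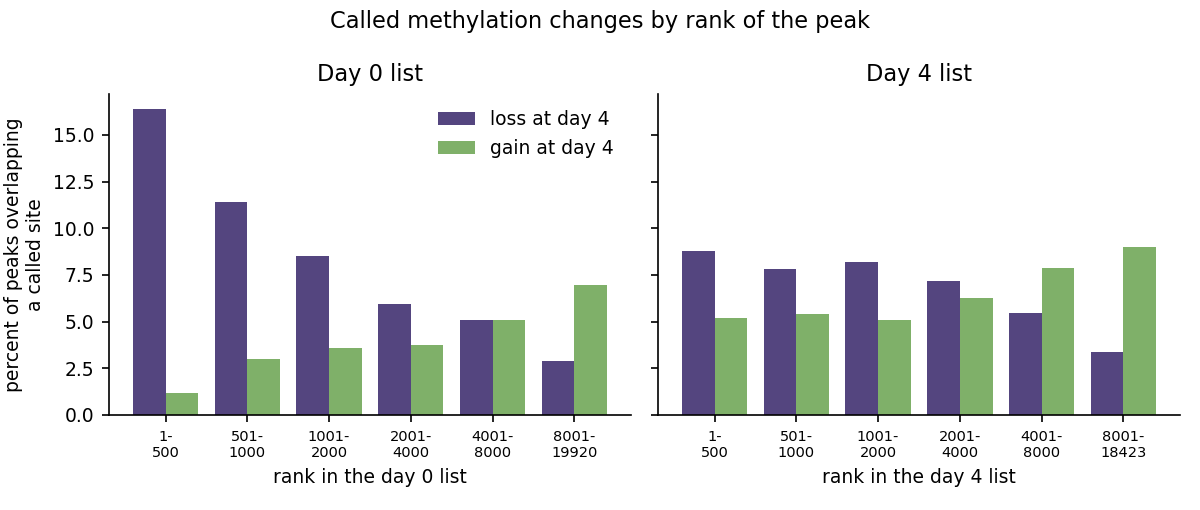
Bars give the percent of peaks overlapping a called loss or gain at day 4, for 6 ranges of rank in the day 0 list and in the day 4 list. Losses fall from 16.4% to 2.88% and gains climb from 1.20% to 6.95% down the day 0 list, and in the day 4 list losses fall from 8.80% to 3.38% while gains climb from 5.20% to 9.02%.

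The counts can be divided by the peak of the other day, as a description only, since the change between the days also decides into which class a member falls. Members overlapping a member of the other day held 30 losses and 5 gains in either list. Day 0 members overlapping a weaker day 4 peak held 49 losses and 1 gain. Day 4 members overlapping a weaker day 0 peak held 14 losses and 17 gains, and the 34 without a day 0 peak held 0 losses and 4 gains. The other 412 members at day 0 and 430 at day 4 overlapped no called site. Taking the 500 peaks with the smallest p instead gave 54 losses and 51 gains at day 0 and 25 losses and 113 gains at day 4, so the excess of losses over gains at day 4 was turned by that ranking.

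The median change over the losses at day 0 members was -0.67, and it was -0.68 at day 4 members, in the authors' deposited table, whose log base the sources do not state. Over all called losses the median finite change was -0.83 in the authors' deposited table. Gains at day 4 members had a median of 1.04, and the 4 without a day 0 peak one of 3.29, against 1.82 over all finite gains in the authors' deposited table. For these values each member was given the overlapping called site with the lowest false discovery rate. None of those sites had an infinite change, which 182 of all called sites had.

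The largest losses at day 0 members in the authors' deposited table were at Rev3l (-1.73), the Golgi coiled-coil protein Gcc2 (-1.40), B9d2, a protein of the ciliary transition zone (-1.34), Abca12 (-1.31), Cd274 (-1.30) and Spata5 (-1.20). The false discovery rate was 9.2e-25 at Abca12 and between 3.4e-04 and 0.0416 at the others in the authors' deposited table. In the authors' deposited table Abca12 was also lower in expression (log2 fold change -1.77, SE 0.14), at a mean of 6851 normalized counts. Its member spans 13218 bp, wide enough to include introns, and the stretch printed above lies at its 5′ edge. Cd274 fell as well (-1.75, SE 0.20), as did Rev3l (-1.005, SE 0.15) and Spata5 (-0.95, SE 0.15), whereas Gcc2 rose (0.42, SE 0.14) in the authors' deposited table. The 6 gains at day 0 members, all of them, were at Gmeb2 (0.88), the kinase Map2k7 (0.76), the proprotein convertase Furin (0.70), Atxn7l3 (0.47), the integrin Itgb5 (0.43) and the semaphorin Sema3f (0.42) in the authors' deposited table.

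At day 4 members the largest gains were at the creatine transporter Slc6a8 (5.48), Arf2 (4.65), the homeobox factor Cux1 (3.82), the kainate receptor subunit Grik5 (2.75), Pitpnm2 (2.58) and the ubiquitin ligase Arih1 (2.06) in the authors' deposited table. Of these, Arf2, Cux1 and Grik5 overlapped no day 0 peak, and the day 0 peaks under Slc6a8 and Arih1 stood at ranks 4143 and 3328. Their members spanned 100 to 150 bp. Pitpnm2 was lower in expression (log2 fold change -0.88, SE 0.13), and the other 5 genes were not listed, in the authors' deposited table. Pcif1, chosen for its printed sequence, overlapped a gain of 1.03 in the authors' deposited table, and its member at rank 298 (score 297) covers a day 0 peak of rank 1352. The largest losses at day 4 members were at the copper protein Cutc (-1.18), Herc4 (-1.17), Mier1 (-1.02), Pigg (-0.996), the kinase Prkd3 (-0.92) and Tardbp, which encodes the RNA-binding protein TDP-43 (-0.88), in the authors' deposited table. Herc4, Pigg and Tardbp held members on both days, at ranks 118 and 309 for Herc4.

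Repeated members of a gene could share a called site, which ties their calls together. Of the 3 day 0 members of Nipbl, with scores of 694, 529 and 431, 2 overlapped the same loss (-0.55) in the authors' deposited table, and their strongest day 4 peaks stood at ranks 1679, 1912 and 1684. The same held for Ubn2, where 2 of 3 members overlapped a loss of -0.44 in the authors' deposited table. Usp34 showed both kinds of site, since its member of rank 3 overlapped a loss (-0.50) in the authors' deposited table and its member of rank 95 overlapped no called site. No member of Ago2, Fryl or Vcpip1 overlapped a called site, although Ago2 members stood at rank 511 or lower at day 4.

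Members were found on all autosomes and on the X chromosome on both days. Chromosomes 1, 2, 3, 4, 10 and 16 gave more than the 2.51% and 2.71% of the whole lists on both days. Chromosome 1 was highest at day 0 (45 members, 3.597% of its peaks, and 39 or 3.47% at day 4), and chromosome 2 was barely above (2.63% and 2.717%). Chromosome 7 gave 22 on each day (1.49% and 1.61% of its peaks). Chromosome 14 gave 13 at day 0 (2.31%) and 25 at day 4 (4.74%), the highest share there. The X chromosome gave 11 members at day 0 (2.44% of its peaks) and 14 at day 4 (3.54%).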

How the data were processed

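Peaks and tables were used as the authors deposited them. Per the submitters' processing notes, the build is mm10 and the tools include HISAT2 2.1.0 and DESeq2 1.18.1. The sources used here name no peak caller. Per the file headers, each peak list gives an enrichment score and an unadjusted p-value per peak, and no column per library. The authors' deposited expression table gives a mean normalized count (a signal averaged over libraries), a log2 fold change, its standard error and an adjusted p-value under headings of the DESeq2 type. The authors' deposited methylation table gives a log fold change of unstated base, treated as a score, with a false discovery rate. Both tables list features under 0.05 only, and the numbers tested (14924 genes, 36796 sites) were derived from p, its rank and adjusted p.

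Peaks were ordered by score, ties by file order, and the top 500 per day taken. Coordinates are 1-based, and an overlap is at least 1 bp on the same strand. Distances used protein-coding RefSeq genes of GRCm38.p6 matched by symbol. Neither table names its direction. Positive values were taken as higher at day 4: genes with peaks at day 0 alone were lower in 765 of 797 cases, those at day 4 alone higher in 466 of 497. Called sites at peaks of day 4 alone were positive in 494 of 523 cases and those of day 0 alone negative in 154 of 235.

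Members, gene lists and alternatives were chosen with earlier results of these data known. Genes were named per day by rule: the 10 highest scores, the 3 either side of rank 500, the 5 genes with most members, the 10 smallest rank sums, the 10 highest scores without a counterpart, the 6 largest rises and falls in expression (mean at least 100, predicted genes left out), the 6 largest finite gains and losses of methylation, and up to 4 members per list. Nothing in the labels ties replicates to separate animals, so the authors' p-values may measure technical spread only. Wilson 95% intervals cover counting error only. The interval code was tested on simulated data. Python 3.11.15 was used, together with pandas 2.3.3, numpy 2.4.6, scipy 1.17.1 and matplotlib 3.10.9.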

Additional observations from a re-analysis of the deposited data

How the results depend on the processing

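Over 18 results and 136 alternative values, 98 moved by less than the counting interval of the reported value, 37 moved by more and 1 changed sign. At day 0 ranking by smallest p gave 99.8% overlap with the other day, 45.3% near the 3′ end, a span of 708 bp, a mean count of 4843, 36.2% of listed genes higher, 10.2% gains, 10.8% losses and 13.5% of genes in the lists (10.1% for the members). At day 4 it gave 99.4%, 45.2%, 593.5 bp, 5252, 73.3%, 22.6%, 5.0% and 12.7% (8.71% for the members), and the median log2 fold change turned from -0.33 to 0.55. The strongest 250 at day 0 gave 98.4% overlap and a mean count of 1235, and the strongest 1000 gave 93.9% and 7.06% in the lists. Taking 500 or 2000 bp as near the 3′ end gave 13.8% and 39.6% at day 0, and 13.5% and 36.6% at day 4. Changes of at least 2-fold gave 26.9% higher and a median of -1.26 at day 0, and a median of -1.01 at day 4. A false discovery rate under 0.01 gave 8.6% losses at day 0, and 3.4% gains and 4.4% losses at day 4. Of 2 subsets chosen after seeing the data, members over 100 bp without whole-number scores gave 98.1% overlap at day 0, and 96.4% and a span of 399 bp at day 4. Members of at most 1000 bp gave spans of 398 and 299 bp, and at day 0 28.3% near the 3′ end and 13.3% losses. All day 0 peaks of at most 1000 bp gave 32.6% and 3.75%. The stricter definitions select fewer by construction; for the ranking by p the cause was not tested. No paired analysis was possible because the tables hold no value per library, and for the same reason leaving out a replicate was not run. Depth is unknown.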
